A study of Mus musculus with 18 samples.

Results

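The genes described here are 10 genes of DNA replication licensing and helicase activation, Mcm2, Mcm3, Mcm4, Mcm5, Mcm6, Mcm7, Cdc45, Cdc6, Cdt1 and Gins1, chosen by symbol among the 36757 genes of the count table. All 10 were found, and all 10 passed the filter on low counts in each of the 3 models. In G1 phase the origin recognition complex and CDC6 sit on the DNA of an origin, and CDT1 brings the ring of MCM2 to MCM7 to them, so that the ring is loaded around the double strand as an inactive helicase, which is called licensing. In S phase CDC45 and the GINS complex, of which GINS1 is a subunit, join the ring and turn it into the active helicase, while geminin (Gmnn) binds CDT1 and blocks a further round of loading. The genes are known targets of E2F transcription factors, and in the gut they are expressed by dividing cells at the crypt base and in tumours.

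The libraries came from C57BL/6 mice in which the models were started at an age of 6 to 8 weeks, labelled RNF138 fl/fl (called wild type in the labels) or RNF138-/-, the knockout of a ubiquitin ligase. Males and females were used, and mice of both genotypes were co-housed. The driver of the deletion is not given in the sources used here. Colitis tissue came from mice given 2% DSS, a detergent that injures the colon epithelium, for 7 days and water for 14 days, in repeated cycles, and killed 4 weeks after the last DSS. Colitis-associated cancer (CAC) tissue came from mice that also received the mutagen AOM at 10 mg/kg, and the organoids were grown in matrigel from CAC tumours. Each of the 6 groups had 3 libraries, and since nothing says that they came from separate animals, the p-values measure only the spread between these libraries.

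Total counts lay between 11514716 and 24390082 per library, and the lowest count of any of the 10 genes in any library was 30 (Gins1) and the highest 2301 (Mcm7). The count of Rnf138 went against the label in CAC. It was 21.5 to 27.6 CPM (the count scaled by the library total and its TMM factor) in the CAC libraries labelled RNF138 fl/fl and 39.7 to 45.8 CPM in those labelled RNF138-/- (log2 fold change 0.72, SE 0.145, adjusted p = 0.0426), a call that was lost without library 1 or 2 of RNF138-/-, and its log2 fold change was -0.06 in colitis and -0.10 in organoids. A count over the whole gene cannot show the loss of 1 exon, so every direction below is between libraries as labelled. Xist was at most 0.585 CPM in the 12 tissue libraries and the 3 organoid libraries labelled RNF138-/-, and 391 to 464 CPM in the 3 organoid libraries labelled RNF138 fl/fl, where the Y-linked Ddx3y had 0 counts, so that in organoids sex and genotype cannot be told apart. The epithelial genes Epcam and Cdh1 were at 627.5 CPM or higher in all 18 libraries, but other epithelial markers differed between the models. The 12 listed colon epithelium markers summed to 22409 to 31168 CPM in colitis, 8476 to 42816 CPM in CAC and 6066 to 11345 CPM in organoids. Muc2 was at 4616 to 11265 CPM in colitis and 11.9 to 79.7 CPM in organoids, whereas Krt18 was at 334 to 638 CPM and 614 to 1833 CPM. Of the leukocyte markers, the T cell gene Cd3e had 0 counts in all 6 organoid libraries, whereas the myeloid gene Lyz2 was at 4.07 to 7.56 CPM in RNF138 fl/fl and 72.4 to 111.2 CPM in RNF138-/- organoids and Cd68 at 11.7 to 21.2 CPM in both. The 7 fibroblast markers summed to 10505 to 52903 CPM in the organoids and to 1203 to 2216 CPM in the 12 tissue libraries.

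In the GENCODE M21 annotation of mm10 (GRCm38), Mcm3 (chr1:20802968-20820312) and Mcm6 (chr1:128331590-128359664) lie on the minus strand of chromosome 1. Mcm2 (chr6:88883474-88898780), Mcm4 (chr16:15623897-15637400), Mcm7 (chr5:138164583-138172422) and Cdc45 (chr16:18780447-18811987) are also on the minus strand, and Mcm5 (chr8:75109569-75128439), Cdc6 (chr11:98907801-98923940), Cdt1 (chr8:122568015-122573554) and Gins1 (chr2:150905400-150931280) are on the plus strand. All 10 are protein coding. Mcm7 overlaps Cops6 and Ap4m1 of the other strand and holds the microRNA genes Mir25, Mir93 and Mir106b, Cdc45 overlaps Ufd1 of the other strand, and Cdt1 overlaps the transcript model Gm20388. The kit does not mark strand, so that reads of the overlaps with genes of the other strand cannot be told apart. Gm20388 lies on the same strand as Cdt1. Of the 50-base windows of each gene's transcripts, 23.3% recurred in another gene for Mcm7, mainly in Gm5487, which has no row in the count table, 5.55% for Cdc45, 3.93% for Cdc6, and at most 1.51% for the other 7 genes, with 0 for Cdt1. The gene models most like Mcm4, Mcm6 and Cdc6 had at most 5 counts in any library.

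RefSeq promoter windows (GRCm38.p6, 250 bases before to 50 after a start site) were available for 8 of the 10 genes, with a pair of windows for Mcm7 and none for Mcm4 and Gins1. The E2F letters TTTCCCGC, TTTGGCGC, TTTCGCGC or TTTGCCGC, searched on both strands, were found in windows of 6 of these 8 genes (Mcm3, Mcm5, Mcm6, Mcm7, Cdc6 and Cdt1) and in 2.27% of all 32851 windows of the table. They were found for 24 of the 86 genes of the pathway lists below that had a window. CCAAT was found for 6 of the 8 genes and in 37.4% of all windows, and the GC box GGGCGG for 6 of the 8 and in 35.7%. A match describes letters and is no evidence of binding. Shown are the 250 bases before the start site of 3 ring subunits that hold the letters there and of Cdt1, the gene that passed the genotype test in organoids. The capitals mark E2F letters on either strand, and where 2 matches overlap on opposite strands, in Mcm5 and Mcm6, they run on.
Mcm5 (chr8:75109259-75109508, plus strand): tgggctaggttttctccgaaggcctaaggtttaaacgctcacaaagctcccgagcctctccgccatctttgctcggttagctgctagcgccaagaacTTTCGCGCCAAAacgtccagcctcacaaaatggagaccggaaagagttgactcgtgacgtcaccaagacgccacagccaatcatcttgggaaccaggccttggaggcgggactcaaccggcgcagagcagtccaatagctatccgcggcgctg
Mcm6 (chr1:128359706-128359955, minus strand): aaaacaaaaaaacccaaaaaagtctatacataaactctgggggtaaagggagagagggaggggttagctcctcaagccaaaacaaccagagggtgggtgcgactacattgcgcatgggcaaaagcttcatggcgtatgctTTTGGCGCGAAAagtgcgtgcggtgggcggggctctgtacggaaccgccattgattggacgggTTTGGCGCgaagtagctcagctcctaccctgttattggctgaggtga
Mcm7 (chr5:138171884-138172133, minus strand): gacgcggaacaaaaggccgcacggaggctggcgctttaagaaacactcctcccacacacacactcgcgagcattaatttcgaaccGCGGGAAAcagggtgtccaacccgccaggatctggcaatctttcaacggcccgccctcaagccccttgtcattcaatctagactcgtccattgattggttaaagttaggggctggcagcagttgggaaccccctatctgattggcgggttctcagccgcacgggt
Cdt1 (chr8:122567765-122568014, plus strand): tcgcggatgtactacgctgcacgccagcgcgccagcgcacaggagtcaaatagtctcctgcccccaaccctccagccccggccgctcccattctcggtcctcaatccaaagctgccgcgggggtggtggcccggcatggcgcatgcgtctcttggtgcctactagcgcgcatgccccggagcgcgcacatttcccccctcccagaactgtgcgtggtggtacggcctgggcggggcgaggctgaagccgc
Mcm6 held 3 matches in its window and Mcm5 2. The stretch of Mcm7 lies before a RefSeq start site but inside the longer gene model of GENCODE M21. In Mcm7 a further match began 16 bases after the start site, and in Cdt1 the only match began 32 bases after it, outside the stretch printed here.

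Compared per length of all annotated exons, a ring subunit stood first in 5 of the 6 groups. In the colitis libraries labelled RNF138 fl/fl, the level was 14.4 ± 0.365 CPM per kb (SD, n = 3) for Mcm6, 13.8 ± 1.83 for Mcm5 and 11.2 ± 0.797 for Mcm7. Cdc6, the loading ATPase, was lowest at 1.74 ± 0.334 CPM per kb. In that group neighbours in the order overlapped over the 3 libraries, except for the steps from Mcm7 to Mcm3, from Mcm3 to Mcm4, from Mcm2 to Gins1 and from Cdc45 to Cdc6. Cdc6 was the lowest of the 10 in all 6 groups, by either measure of length. In CAC, Mcm7 led in both genotypes, at 11.6 ± 3.49 CPM per kb in the libraries labelled RNF138 fl/fl and 21.8 ± 1.20 in those labelled RNF138-/-, where its 3 libraries lay above those of Mcm4, the next in the order. Cdt1 led in the organoids labelled RNF138-/-, at 10.5 ± 0.821 CPM per kb, ahead of Mcm4 at 8.99 ± 0.628, with overlapping libraries. Within a library the highest ring subunit was 1.76 to 3.41 times the lowest per kb. These orders depend on the length used, since the annotated exons of Mcm2 sum to 6956 bases and its longest transcript to 3494 bases: by the longest transcript Mcm2 in the CAC libraries labelled RNF138-/- moved from place 6, at 9.65 CPM per kb, to place 2, at 19.2 CPM per kb.

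**Figure D1:**
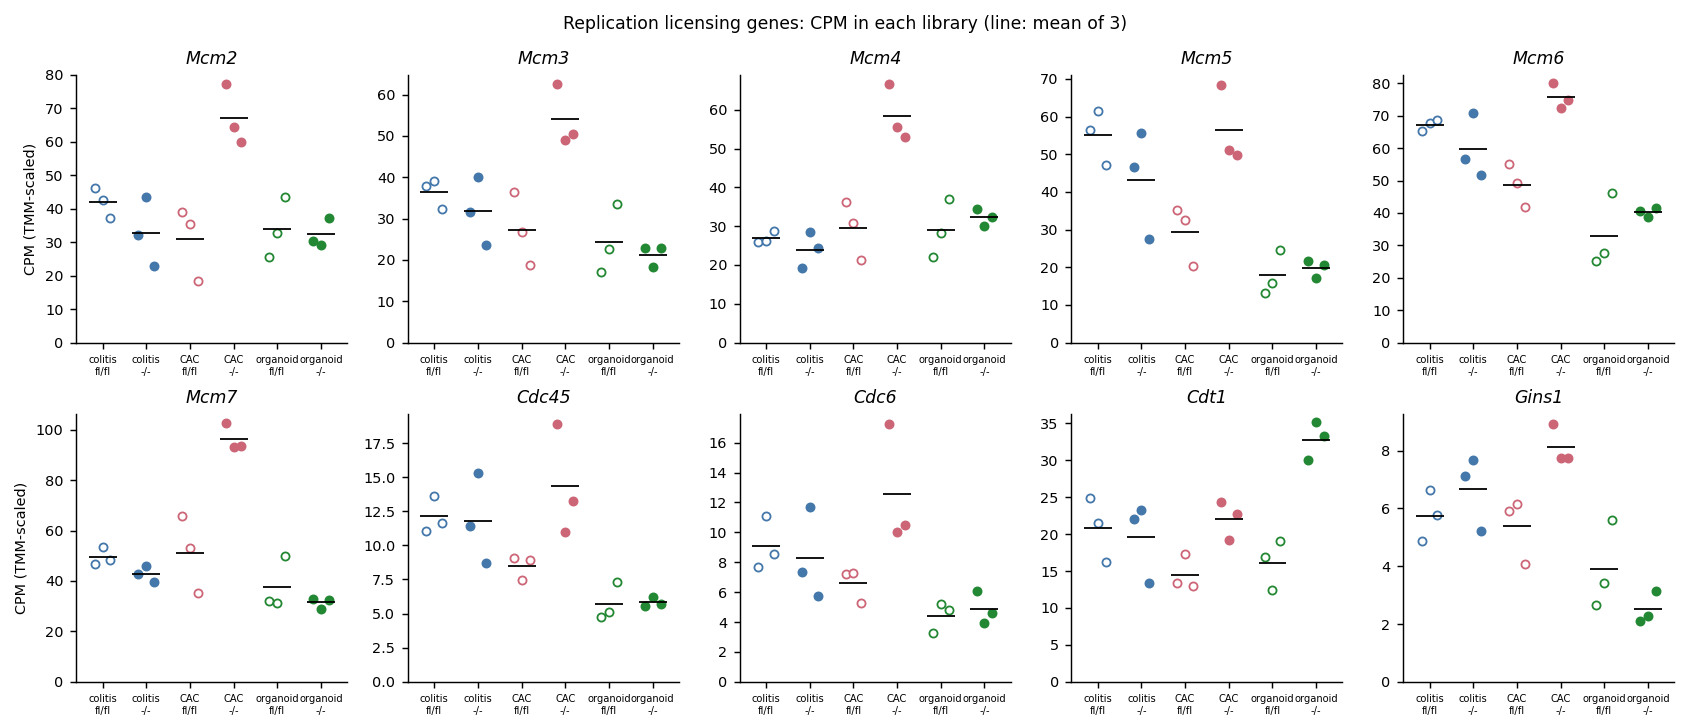
CPM (TMM-scaled, vertical axis) of each of the 10 genes in each library, with the 6 groups on the horizontal axis, open points for RNF138 fl/fl and filled points for RNF138-/-, and a line at the mean of 3 libraries. In CAC the filled points lie above the open points for all 10 genes, and in organoids all filled points lie above all open points only for Cdt1.

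Summed over the 10 genes, the libraries labelled RNF138-/- held 434 to 527 CPM in CAC, and no other library of the 18 reached 344 CPM. The CAC libraries labelled RNF138 fl/fl held 187 to 303 CPM, the 6 colitis libraries 222 to 344 CPM, and the 6 organoid libraries 162 to 271 CPM. The design asks whether genotype changed these genes in each model, whether it did so differently between models, and how the models differ within a genotype. A gene was called at a Benjamini-Hochberg adjusted p under 0.05 by edgeR's quasi-likelihood test over all genes tested.

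In CAC, all 10 genes had higher CPM in the libraries labelled RNF138-/-, with no overlap between the groups, and a log2 fold change between 0.54 (Gins1) and 1.07 (Mcm2), yet none passed the test. The background is high: 21.4% of the 17752 genes tested did not overlap with the higher values in RNF138-/-, and 22.8% with the lower values. By adjusted p, 1.05% of the genes tested were called higher and 5.33% called lower. Of the 10 genes, 0 were called, 9 had an unadjusted p under 0.05, the lowest adjusted p was 0.0508 (Mcm4), and DESeq2 called 7, while it called 8.23% of all genes higher. The median log2 fold change of the 10 was 0.87, beside 0.01 over all genes tested.

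Mcm2, a subunit whose long tail binds histones, was at 39.0, 35.4 and 18.3 CPM in the CAC libraries 1, 2 and 3 labelled RNF138 fl/fl and at 77.2, 64.3 and 60.0 CPM in those labelled RNF138-/- (log2 fold change 1.07, SE 0.282, adjusted p = 0.0642). Every library labelled RNF138-/- lay above every library of the other group, whose library 3 was far below its other two. Mcm3 was at 36.4, 26.7 and 18.7 CPM against 62.6, 49.1 and 50.4 CPM (log2 fold change 0.94, SE 0.249, adjusted p = 0.0653). Mcm4, which with MCM6 and MCM7 forms the core of the ring that can unwind DNA, was at 36.3, 30.9 and 21.4 CPM against 66.7, 55.5 and 53.1 CPM (log2 fold change 0.93, SE 0.211, adjusted p = 0.0508). Mcm7 was at 65.8, 53.0 and 35.0 CPM against 102.6, 93.2 and 93.6 CPM (log2 fold change 0.86, SE 0.223, adjusted p = 0.0623). In these 4 genes library 3 of the RNF138 fl/fl group was the lowest and library 1 of the RNF138-/- group the highest. Mcm5 had a log2 fold change of 0.89 (SE 0.239) and Mcm6 of 0.59 (SE 0.135), with adjusted p values of 0.0660 and 0.0523.

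The 4 genes outside the ring had higher adjusted p values in CAC than the ring. Cdc45, the helicase cofactor, was at 8.50 ± 0.888 CPM (SD, n = 3) against 14.4 ± 4.10 CPM (log2 fold change 0.71, adjusted p = 0.11). Cdc6 was at 6.60 ± 1.12 CPM against 12.6 ± 4.05 CPM (log2 fold change 0.87, adjusted p = 0.0924). In both, the wide spread of the RNF138-/- group came from its library 1, at 18.9 CPM for Cdc45 and 17.2 CPM for Cdc6. Cdt1, the loader that brings the ring, was at 14.5 ± 2.37 CPM against 22.1 ± 2.57 CPM (log2 fold change 0.55, adjusted p = 0.0975), and Gins1 at 5.38 ± 1.14 CPM against 8.14 ± 0.690 CPM (log2 fold change 0.54, adjusted p = 0.157).

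The number called in CAC depended on the settings and on single libraries, as did the share of all genes called. A single fit of all 18 libraries called 8 of the 10 genes and 9.27% of all genes higher. Upper quartile scaling called 2 (Mcm4 and Mcm6, beside 1.21% of all genes), and a fit with no filter on low counts called 3 (Mcm2, Mcm3 and Mcm4, beside 1.01%). Without library 3 of the RNF138 fl/fl group 4 were called (Mcm2, Mcm4, Mcm6 and Mcm7, beside 2.21% of all genes), while without any 1 of the RNF138-/- libraries 0 were called (lowest adjusted p 0.108 to 0.164). In each of these fits all 10 log2 fold changes were positive. Library 3 of the RNF138 fl/fl group was the lowest of its group for 9 of the 10 genes, the exception being Cdc45.

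Other cell types moved with the genotype labels in CAC, and their part in the licensing genes' values was not tested. All 7 smooth muscle markers were called lower (median log2 fold change -5.04), and their summed level was 2543 to 8484 CPM in the RNF138 fl/fl libraries and 116 to 246 CPM in those labelled RNF138-/-. Of 8 B and germinal centre cell markers tested, 6 were called lower, with a summed level of 1527 to 2285 CPM against 142 to 239 CPM over the 9 listed. All 12 colon epithelium markers had negative fold changes and 2 were called, and their sum was 16941 to 42816 CPM against 8476 to 10549 CPM. All 7 intestinal stem cell markers had positive fold changes (median 1.72, 0 called, 7 with an unadjusted p under 0.05), with a sum of 108 to 606 CPM against 1319 to 1650 CPM. None of the defining markers Myh11, Epcam, Lgr5 or Jchain was at 0 in any CAC library. Within the RNF138 fl/fl group, library 3 held 108 CPM of stem cell markers against 479 and 606 CPM, and 8484 CPM of smooth muscle markers against 2543 and 3630 CPM. In bulk samples a smaller number of cells of a type and less RNA per cell cannot be told apart. When each library was scaled to equal epithelial content (Epcam, Cdh1, Krt8, Krt18 and Krt19), an alternative chosen after seeing the data, the median log2 fold change of the 10 genes was 1.25, beside 0.42 over all genes, and 0 were called.

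In colitis no difference between genotypes was detectable in these genes. Of the 10, 9 had a negative log2 fold change and Gins1 a positive one (median -0.17, beside 0.02 over all genes), 0 were called, 0 had an unadjusted p under 0.05, and the lowest adjusted p was 0.686 (Mcm2). Only Mcm7 did not overlap, at 46.8, 53.5 and 48.1 CPM in RNF138 fl/fl against 42.8, 45.9 and 39.6 CPM (log2 fold change -0.21, SE 0.160, adjusted p = 0.719). The background was 8.15% of 16623 genes not overlapping with lower values and 8.92% with higher values, and 0.0722% called lower and 0.0180% called higher. Mcm2 was at 46.3, 42.7 and 37.1 CPM in RNF138 fl/fl and at 32.01, 43.5 and 22.8 CPM in RNF138-/- (log2 fold change -0.36, SE 0.250). In the RNF138-/- group library 2 was the highest for all 10 genes and library 3 the lowest for 9, and their summed levels of 342 and 222 CPM spanned the whole RNF138 fl/fl range of 304 to 344 CPM except its upper end.

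In organoids 1 of the 10 genes was called, Cdt1. It was at 16.8, 12.4 and 19.0 CPM in the libraries labelled RNF138 fl/fl and at 30.0, 35.2 and 33.2 CPM in those labelled RNF138-/- (log2 fold change 0.99, SE 0.168, adjusted p = 0.00459), so that the groups did not overlap. That call was kept in all 15 alternatives, with a log2 fold change of 0.78 to 1.62 and an adjusted p of at most 0.0241. The background was high here as well, with 17.9% of 15294 genes called higher and 17.7% called lower, and 25.8% not overlapping with higher values and 27.8% with lower values. The median log2 fold change of the 10 genes was 0.05, beside -0.04 over all genes, with 5 positive and 5 negative. Gins1 had the largest negative value, at 2.65, 3.43 and 5.6 CPM against 2.11, 2.28 and 3.14 CPM (log2 fold change -0.67, SE 0.345, adjusted p = 0.158), and the groups overlapped. The 6 ring subunits had log2 fold changes between -0.30 (Mcm7) and 0.25 (Mcm6), none with an unadjusted p under 0.05. Library 3 of the RNF138 fl/fl organoids was the highest of its group for 9 of the 10 genes, the exception being Cdc6.

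Beside the organoid values, all 7 fibroblast markers were called higher in the libraries labelled RNF138-/- (median log2 fold change 1.46, sum 42876 to 52903 CPM against 10505 to 25194 CPM), and 3 of 6 stem cell markers tested were called lower (sum 722 to 935 CPM against 1304 to 1979 CPM). Of the 12 colon epithelium markers 4 were called lower (sum 6066 to 8915 CPM against 10068 to 11345 CPM), and all 7 smooth muscle markers had positive values (median 1.10, 2 called higher, sum 1590 to 1788 CPM against 267 to 1365 CPM). The part of any of these in the values of the licensing genes was not tested. With the epithelial scaling, under which the median of all genes was 0.58 in place of -0.04, Mcm4, Mcm5, Mcm6 and Cdt1 were called higher, beside 44.3% of all genes, and the signs of Mcm2, Mcm3, Mcm7 and Cdc45 turned positive.

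**Figure D2:**
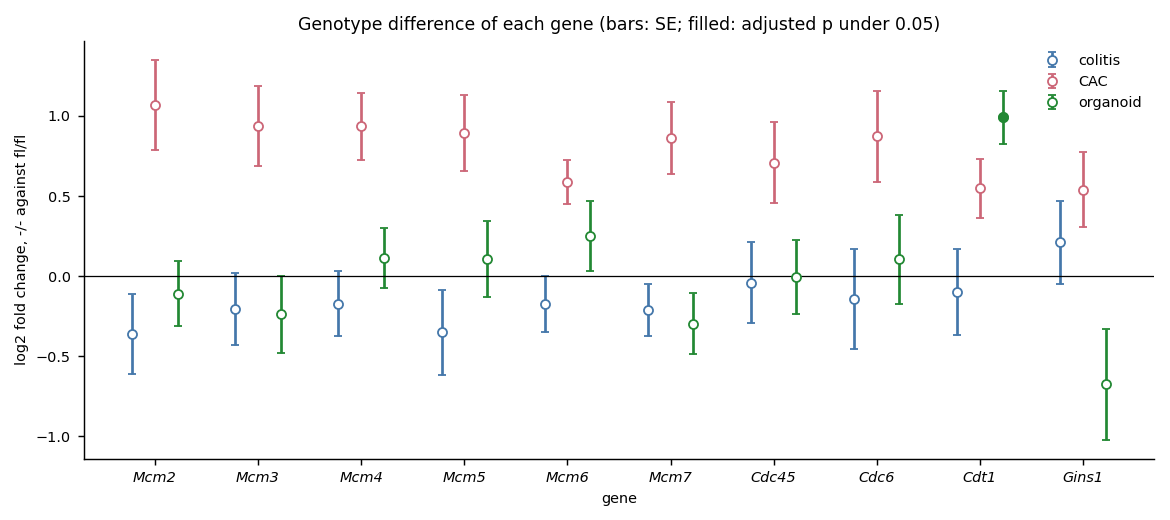
Log2 fold change of RNF138-/- against RNF138 fl/fl (vertical axis) for each gene (horizontal axis) in colitis, CAC and organoids, with bars for the standard error and filled points for an adjusted p under 0.05. All 10 CAC values are positive and lie above the colitis values, and the one filled point is Cdt1 in organoids, at 0.99.

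The difference between the genotype effects was tested directly, as an interaction in a fit of all 18 libraries. Between CAC and colitis it was positive for all 10 genes (median 1.09, beside -0.004 over all genes), and 5 were called, Mcm2 (1.47, SE 0.384, adjusted p = 0.0198), Mcm3 (1.18, adjusted p = 0.0436), Mcm4 (1.15, adjusted p = 0.0190), Mcm5 (1.29, adjusted p = 0.0364) and Mcm7 (1.12, SE 0.287, adjusted p = 0.0185). The background was 4.21% of 19390 genes called higher and 9.88% called lower. The call of Mcm7 held without any 1 of the 12 libraries, and the number called without 1 library was between 2 and 6. Library 1 of the colitis RNF138 fl/fl group mattered most, since without it the calls were Mcm4 and Mcm7. The number fell to 3 without colitis RNF138 fl/fl library 2 or 3, colitis RNF138-/- library 1 or 3, CAC RNF138 fl/fl library 3, or CAC RNF138-/- library 1 or 2. Mcm6 missed the threshold at 0.81 (SE 0.268, adjusted p = 0.0542), and the value for Gins1 was 0.38 (SE 0.400, adjusted p = 0.570).

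Between organoids and CAC the difference was negative for 9 of the 10 genes, and 4 were called lower, Mcm2 (-1.19, adjusted p = 0.0352), Mcm3 (-1.18, adjusted p = 0.0309), Mcm7 (-1.17, adjusted p = 0.00886) and Gins1 (-1.23, adjusted p = 0.0406), against a background of 10.2% called lower and 13.1% called higher. Cdt1 was the exception, at 0.43 (SE 0.322, adjusted p = 0.363). Only the call of Mcm7 was left without library 3 of the CAC RNF138 fl/fl group, and likewise without library 1 of the CAC RNF138-/- group, library 3 of the organoid RNF138 fl/fl group, or library 1 or 2 of the organoid RNF138-/- group. Mcm3 and Mcm7 were left without library 2 of the CAC RNF138-/- group or library 2 of the organoid RNF138 fl/fl group. Between organoids and colitis only Cdt1 was called, at 1.12 (SE 0.323, adjusted p = 0.0456), beside 4.52% of genes called higher and 2.58% called lower, and this call was lost in 12 of 18 alternatives (adjusted p between 0.0110 and 0.13). The comparisons with CAC share the CAC libraries and are not independent of each other.

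**Figure D3:**
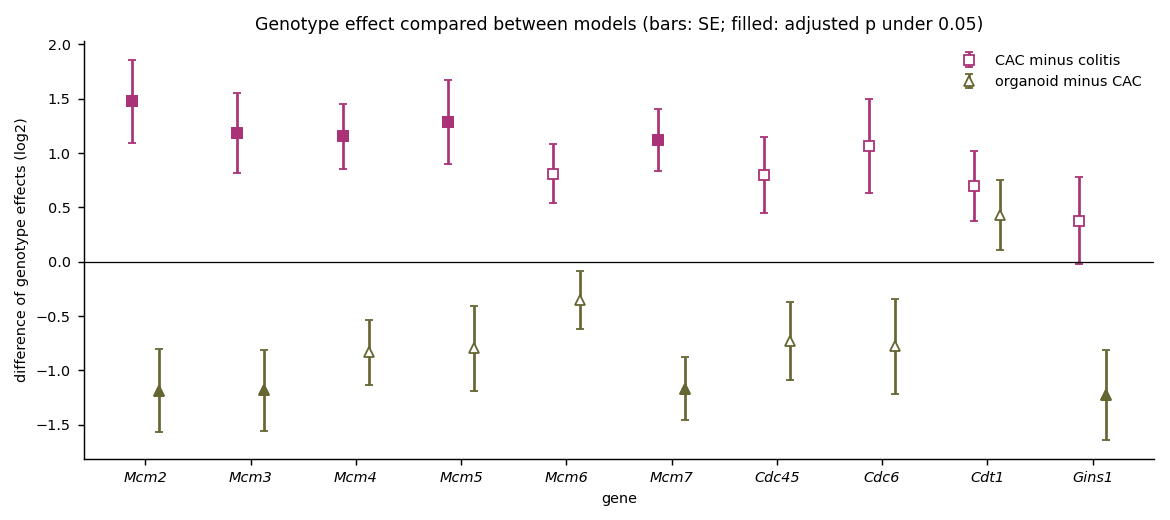
Difference of the genotype effects between models (log2, vertical axis) for each gene (horizontal axis), as CAC minus colitis (squares) and organoid minus CAC (triangles), with bars for the standard error and filled symbols for an adjusted p under 0.05. The squares lie above 0 for all 10 genes, with 5 filled, and the triangles below 0 for all but Cdt1, with 4 filled.

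Within a genotype, CAC tissue was set against colitis tissue. In RNF138 fl/fl, Mcm5 was called lower in CAC, at 35.1, 32.5 and 20.3 CPM against 56.4, 61.6 and 47.1 CPM in colitis (log2 fold change -0.91, SE 0.274, adjusted p = 0.0288), and the other 9 were not called. Here 7.55% of all genes were called lower and 12.3% higher, and the call of Mcm5 was lost without library 1 or 2 of the colitis group, without library 3 of the CAC group, and under library size scaling. In the libraries labelled RNF138-/-, all 10 genes had positive values, and Mcm4 (log2 fold change 1.29, SE 0.213, adjusted p = 0.000140), Mcm7 (1.17, SE 0.205, adjusted p = 0.000218), Mcm2 (1.03, SE 0.272, adjusted p = 0.00453) and Mcm3 (0.77, SE 0.261, adjusted p = 0.0204) were called higher. The background was 27.9% called higher and 26.7% called lower. Mcm5 and Mcm6 were not called in this genotype, at 0.38 (adjusted p = 0.244) and 0.35 (adjusted p = 0.133), though Mcm6 and Cdc6 were called when libraries were scaled by their size alone. The call of Mcm3 was lost without library 1 or 3 of the colitis group or library 1 of the CAC group. In this comparison all 7 smooth muscle markers were called lower (median -5.70), as were 7 of 8 B and germinal centre cell markers (median -3.62). Of the 12 colon epithelium markers 7 were called lower and 1 higher (median -1.48), and 6 of 7 stem cell markers were called higher (median 3.14). Their part in these values was not tested.

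Organoids were also set against CAC tissue, a comparison that mixes culture with tissue. In RNF138 fl/fl, Mcm5 (log2 fold change -0.72, SE 0.277, adjusted p = 0.0342) and Mcm6 (-0.56, SE 0.191, adjusted p = 0.0185) were called lower, beside 33.7% of genes called lower and 27.0% called higher. None of the 10 was called without library 1 of the CAC group or library 1 or 2 of the organoid group, only Mcm6 without library 2 of the CAC group, and 5 without library 3 of the organoid group. Markers called lower here were 9 of 10 leukocyte, 7 of 8 B and germinal centre cell, 6 of 7 smooth muscle, 4 of 5 endothelium and 8 of 12 colon epithelium markers. Called higher were 6 of 7 fibroblast and 4 of 7 stem cell markers, and 1 each of the B cell and epithelium markers. Their part in these values was not tested. In the libraries labelled RNF138-/-, 9 of the 10 were called lower, with log2 fold changes between -0.86 (Mcm4) and -1.70 (Gins1), beside 34.2% of genes called lower and 25.7% called higher. In this comparison 10 of 10 leukocyte markers (median -5.65) and 5 of 5 endothelium markers (median -4.12) were called lower, and 7 of 7 fibroblast markers (median 4.498) and 5 of 7 smooth muscle markers (median 2.22) were called higher, and their part in these values was not tested. Cdt1 was called higher, at 30.0, 35.2 and 33.2 CPM in organoids against 24.3, 19.3 and 22.7 CPM in CAC (log2 fold change 0.57, SE 0.227, adjusted p = 0.0389), but this value turned to -0.05 when libraries were scaled by their size alone, and the call was lost under upper quartile scaling, without the filter on low counts, and without any 1 of the 6 libraries other than organoid library 1.

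Cdt1 was therefore compared with the other licensing genes inside each library, which no scaling of libraries alters beyond the small prior count. The log2 CPM of Cdt1 minus the mean of Mcm2 to Mcm7 was -0.80 ± 0.383 (SD, n = 3) in the RNF138 fl/fl organoids and 0.20 ± 0.218 in the RNF138-/- organoids, with no overlap. In CAC it was -1.23 ± 0.407 in RNF138 fl/fl and -1.59 ± 0.130 in RNF138-/-, with overlap, and in the colitis groups -1.10 ± 0.265 and -0.95 ± 0.230. Gmnn, the inhibitor of CDT1, was at 8.21 ± 2.78 CPM in the RNF138 fl/fl organoids and 6.81 ± 0.983 CPM in the RNF138-/- organoids (log2 fold change -0.31, adjusted p = 0.405). Cdt1 minus Gmnn on the log2 scale was 0.64 to 1.57 and 1.94 to 2.58 in these groups. In CAC it was -0.53 to 0.27 and 0.45 to 0.60, and in colitis -0.52 to 0.02 and -0.76 to -0.15, so that the genotypes did not overlap in organoids and CAC and did overlap in colitis. Gins1 minus the ring mean was lower in RNF138-/- in organoids, at -2.86 ± 0.116 and -3.47 ± 0.264, and in CAC, at -2.65 ± 0.169 and -3.01 ± 0.0405, and higher in colitis, at -2.93 ± 0.209 and -2.46 ± 0.122. For Gins1 the genotypes did not overlap in any of the 3 models, while for Cdc45 and Cdc6 minus the ring mean they overlapped in all 3. No such share was computed over other genes. Non-overlap in the CPM of single genes was common, with higher values in 25.8% of genes in organoids, 21.4% in CAC and 8.92% in colitis. With lower values these shares were 27.8%, 22.8% and 8.15%.

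**Figure D4:**
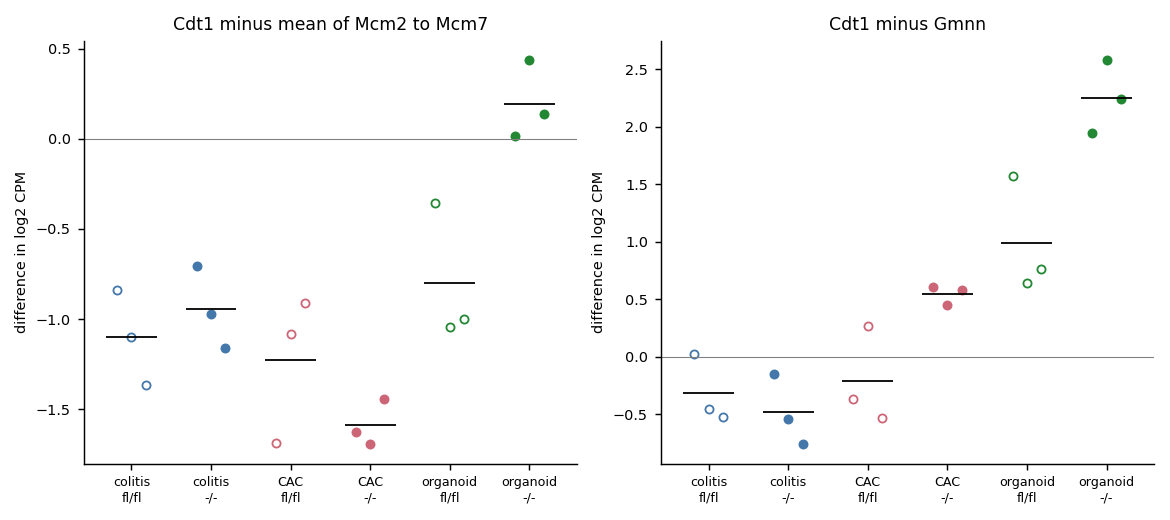
Log2 CPM of Cdt1 minus the mean of Mcm2 to Mcm7 (left) and minus Gmnn (right) in each library (vertical axes, log2), by group, with open points for RNF138 fl/fl, filled points for RNF138-/- and a line at the mean of 3. The RNF138-/- organoids lie highest in both panels, from 0.01 to 0.44 on the left and from 1.94 to 2.58 on the right.

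The rest of the replication pathway was followed through 6 lists of genes. In CAC most of its values were on the same side as the licensing genes, whereas 50.4% of all genes tested had a positive value and 1.05% were called higher. All 6 genes of the origin recognition complex had positive log2 fold changes (median 0.38, 0 called), as did 12 of 16 other loading, firing and helicase factors (median 0.27, 3 called higher), 24 of 24 fork, polymerase and clamp proteins (median 0.42, 3 called higher), 12 of 12 genes of nucleotide supply and S phase chromatin (median 0.50, 2 called higher), 21 of 30 genes of E2F, cyclin E and licensing control (median 0.38, 1 called higher) and 17 of 18 mitosis genes (median 0.41, 0 called). The median of the 10 licensing genes, 0.87, was above each of these 6 medians. The 5 genes of these lists with the lowest p among those without overlap were Pole, the catalytic subunit of polymerase epsilon (log2 fold change 1.18, adjusted p = 0.0283), Mtbp, a partner of the origin firing factor Ticrr (1.04, adjusted p = 0.0341), Clspn, a mediator of the replication checkpoint (0.91, adjusted p = 0.0372), Rrm1, the large subunit of ribonucleotide reductase (0.80, adjusted p = 0.0381), and Topbp1, a scaffold for helicase activation (0.80, adjusted p = 0.0440). Pole was at 12.4, 12.0 and 9.94 CPM in RNF138 fl/fl and at 25.4, 31.5 and 24.0 CPM in RNF138-/-. Over all genes, 186 were called higher and 946 lower with all libraries, 0 and 0 without library 1 or 2 of the RNF138-/- group, and 6 and 103 without its library 3. Without library 1, 2 or 3 of the RNF138 fl/fl group 6, 117 and 407 were called higher and 282, 584 and 1230 lower.

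In colitis edgeR called 0 genes of the 6 lists. An unadjusted p under 0.05 was found for 1 positive value, among the other loading factors, and for 2 negative ones, in E2F, cyclin E and licensing control. The medians lay between -0.26 (E2F, cyclin E and licensing control, where 25 of 29 values were negative) and 0.03 (origin recognition complex). The 5 lowest p among genes without overlap belonged to Cdc7, the kinase that phosphorylates the ring (0.62, adjusted p = 0.454), E2f3 (-0.48, adjusted p = 0.479), Cdk2 (-0.32, adjusted p = 0.561), Topbp1 (-0.36, adjusted p = 0.573) and Orc1 (-0.62, adjusted p = 0.583).

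In organoids, where 17.9% of all genes were called higher and 17.7% lower, calls in the lists ran in both directions, with a positive value for all 18 mitosis genes (median 0.36, 4 called higher) and a negative one for 5 of 6 origin recognition genes (median -0.35, 2 called lower). Over all genes tested, 47.5% had a positive value and 52.5% a negative one. Of the other loading factors 1 was called higher and 1 lower, of the fork proteins 1 higher and 3 lower, of nucleotide supply 0, and of E2F and cyclin control 4 higher and 2 lower. The 5 lowest p were those of the clamp loader subunit Rfc3 (-1.48, adjusted p = 0.00181), the CDK4 and CDK6 inhibitor Cdkn2c (1.07, adjusted p = 0.00295), the single-strand binding protein Rpa1 (-0.53, adjusted p = 0.00633), Myc (-0.66, adjusted p = 0.00668) and Orc6 (-0.62, adjusted p = 0.0111). E2f1, an activator of these genes, was called higher along with Cdt1, at 17.7 ± 3.64 CPM against 30.5 ± 3.60 CPM (log2 fold change 0.75, adjusted p = 0.0124), and Pcna, the sliding clamp, was called lower (-0.32, adjusted p = 0.0498).

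Among the reference genes of proliferation, Mki67 had a log2 fold change of 0.24 (adjusted p = 0.307) in CAC, -0.06 (adjusted p = 0.947) in colitis and 0.80 (adjusted p = 0.0909) in organoids. Top2a, which untangles chromosomes in mitosis, had 0.93 (adjusted p = 0.0725), -0.08 (adjusted p = 0.938) and 0.41 (adjusted p = 0.158). In CAC, Pcna was at 0.52 (adjusted p = 0.0603), Dbf4, the activator of CDC7, at 0.54 (adjusted p = 0.118), E2f1 at 0.50 (adjusted p = 0.142), Orc1 at 0.44 (adjusted p = 0.294), Ccne1 at 0.46 (adjusted p = 0.371) and Gmnn at -0.21 (adjusted p = 0.407), none of them called. In colitis the values of Pcna, Gmnn, Dbf4, E2f1 and Ccne1 lay between -0.07 and 0.07. In organoids Dbf4 was at -0.43 (adjusted p = 0.0667), Ccne1 at 0.36 (adjusted p = 0.172) and Orc1 at -0.38 (adjusted p = 0.402).

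The balance between licensing and mitosis genes differed between models. The mean log2 CPM of the 10 licensing genes minus that of the 18 mitosis genes was -0.63 ± 0.408 (SD, n = 3) in CAC RNF138 fl/fl and -0.22 ± 0.0871 in CAC RNF138-/-, -0.19 ± 0.124 and -0.33 ± 0.223 in colitis, and 0.72 ± 0.0503 and 0.31 ± 0.0527 in organoids. The difference was above 0 in all 6 organoid libraries and below 0 in all 12 tissue libraries. These levels were not scaled by gene length, so the sign has no meaning in itself and only shifts between groups can be read. All 18 mitosis genes were called lower in organoids than in CAC in both genotypes (median -1.66 in each), beside 33.7% of all genes in RNF138 fl/fl and 34.2% in RNF138-/-, and Mki67 was at 15.9 to 52.1 CPM in organoids and at 122 to 228 CPM in tissue. In organoids the genotypes did not overlap in this difference, and in CAC they overlapped, with library 1 of RNF138 fl/fl at -0.29 and library 2 of RNF138-/- also at -0.29. How often other sets of genes would not overlap was not computed.

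**Figure D5:**
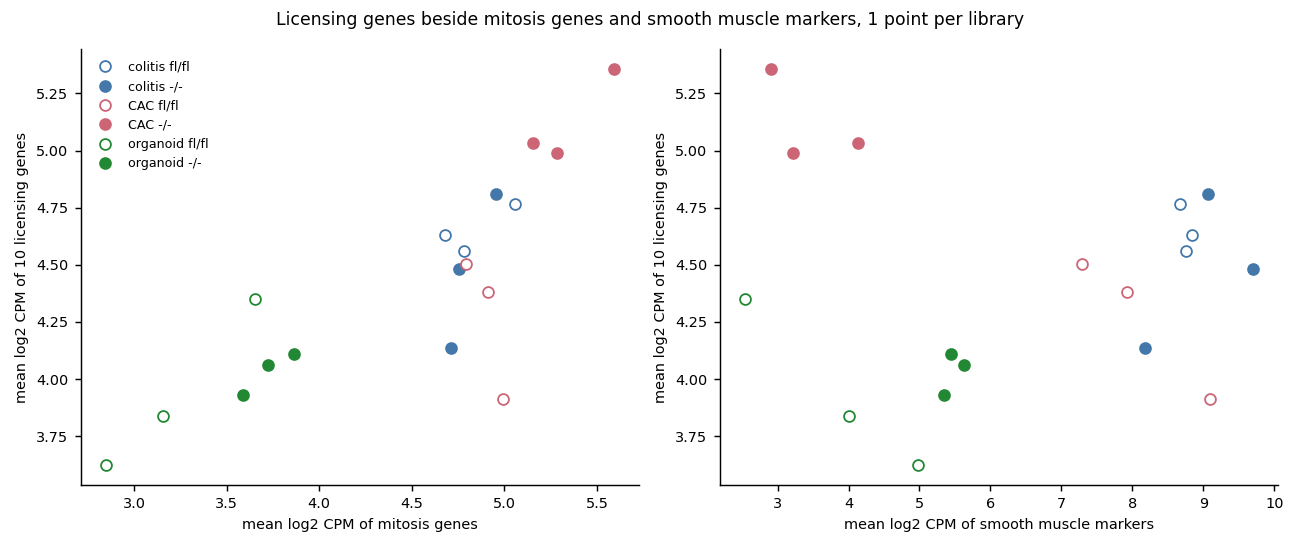
Mean log2 CPM of the 10 licensing genes (vertical axes) against that of 18 mitosis genes (left) and 7 smooth muscle markers (right), 1 point per library, open for RNF138 fl/fl and filled for RNF138-/-. The 3 CAC libraries labelled RNF138-/- have licensing means of 4.99 to 5.36, above all others, and the lowest smooth muscle means of the tissue libraries, 2.90 to 4.13.

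The co-variation of the 10 genes was described over the 18 libraries, which share models and groups. With the mean of its model removed from each library, Pearson's r between 2 of the 6 ring subunits was 0.79 to 0.96 (15 pairs, median 0.89), and over all 45 pairs it was 0.05 to 0.96 (median 0.79). The lowest r, 0.05, was between Cdt1 and Gins1, and Cdt1 had the lowest median r with the other 9, 0.48. With the mean of each group removed, so that only the spread between replicates was left, r was 0.69 to 0.95 for the ring subunits (median 0.82) and 0.09 to 0.95 over all 45 pairs (median 0.69), lowest between Cdt1 and Mcm4. The 8 other genes whose values were most like the mean of the 10, among 14048 genes tested in all models, were Noc4l (r = 0.95), Ruvbl1 (r = 0.95), Rbmxl1 (r = 0.93), Nop2 (r = 0.92), Prmt5 (r = 0.92), Trim27 (r = 0.92), Nap1l4 (r = 0.91) and Uhrf1 (r = 0.91). These r follow the CAC values, so they are given as a description over 18 libraries. Noc4l was at 22.2 ± 5.93 CPM and 38.4 ± 4.56 CPM (SD, n = 3) in CAC labelled RNF138 fl/fl and RNF138-/-, and at 25.5 ± 4.79 and 25.2 ± 1.91 CPM in organoids. By list, the median r was 0.75 for intestinal stem cell markers (6 genes), 0.71 for nucleotide supply, 0.63 for fork proteins, 0.58 for mitosis, 0.49 for E2F and cyclin control, 0.40 for other loading factors and 0.33 for the origin recognition complex, and -0.76 for smooth muscle markers (7 genes), beside 0.07 over all genes.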

How the data were processed

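RNA-seq was measured in 18 libraries, 3 for each of 6 groups, and the authors deposited a table of raw read counts per gene, made with STAR 2.6.1d and HTSeq 0.11.2 per the submitters' processing notes (mm10); the study's methods instead name Cufflinks and Gencode, and the strand setting of the counting is not given in the sources used here. A second deposited table holds only the authors' own fold changes and p-values and was not used. Every column of the count table belonged to a labelled sample.

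Genotype was compared within each model with edgeR 4.0.16 in R 4.3.3 (TMM, filterByExpr, glmQLFit, glmQLFTest), and models and interactions in 1 fit of all 18 libraries, with Benjamini-Hochberg adjustment over all genes tested. Every adjusted p comes from these fits or, where said, from an alternative. Alternatives were DESeq2 1.42.0, other scalings and filters, a replicate block, a Y-linked covariate and leaving out each library. Where leaving out a library left 2 against 3, the spread was pooled over the groups of the fit. CPM used TMM library sizes, and log2 CPM a prior count of 2. Per-length levels used GENCODE M21 exons (36700 of 36757 genes matched). No 2 libraries of a group agreed within sampling noise. The scripts were tested on simulated data.

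The licensing genes, the pathway and marker lists and the tests were chosen with earlier results of these data known. Named were the 10 licensing genes, 8 reference genes, the 5 pathway genes of lowest p without overlap in each model, and the 8 genes most like the mean of the 10. Depth was 11514716 to 24390082 counts per library.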

Additional observations from a re-analysis of the deposited data

Results flagged for a closer look

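The genotype difference (RNF138-/- against RNF138 fl/fl, log2) was tested between models as an interaction in edgeR's fit of all 18 libraries, and 10 values for 7 of the licensing genes passed an adjusted p of 0.05. Between CAC and colitis the difference was 1.475 for Mcm2, 1.184 for Mcm3, 1.154 for Mcm4, 1.289 for Mcm5 and 1.119 for Mcm7, where 4.21% of all genes were called higher. In each of these genes the 3 CAC libraries labelled RNF138-/- lay above the 3 labelled RNF138 fl/fl, and in colitis the fold change was negative and not called. Between organoids and CAC it was -1.187 for Mcm2, -1.184 for Mcm3, -1.168 for Mcm7 and -1.226 for Gins1, where 10.2% of all genes were called lower. Between organoids and colitis it was 1.122 for Cdt1, where 4.52% of all genes were called higher, and this call was lost in 12 of 18 alternatives. The CAC libraries take part in 9 of the 10 values, so these are not independent. Between the genotypes, 7 of 7 smooth muscle, 6 of 8 B and germinal centre cell, 2 of 12 colon epithelium and 0 of 7 stem cell markers were called in CAC, and 7 of 7 fibroblast markers in organoids, where sex also follows genotype, and their part in these values was not tested.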

How the results depend on the processing

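The number of the 10 licensing genes called for genotype was 0 in colitis under every alternative run. In CAC it was 0, but 2 under upper quartile scaling, 7 with DESeq2, 3 without the filter on low counts, 8 in a fit of all 18 libraries, 4 with the replicate block (beside 195 of 17752 genes called higher), and 0 to 4 without 1 library, 4 only without RNF138 fl/fl library 3. With a Y-linked covariate it was 0, with a lowest adjusted p of 0.159. All 10 CAC values stayed positive under each of these. The covariate is no adjustment for sex in CAC, where Xist was at most 0.585 CPM in every library, and it correlated with genotype at -0.567. Among its genes, Eif2s3y was at 4.47 and 0.815 CPM in CAC RNF138-/- libraries 1 and 3 and at 59.1 to 90.8 CPM in the other CAC libraries. In organoids the number was 1, but 4 under epithelial scaling, and 1 to 2 without 1 library, and a Y-linked covariate could not be fitted, since it follows genotype there. Same-numbered libraries correlated at 0.09 to 0.47 in colitis, 0.04 to 0.20 in CAC and -0.19 to 0.06 in organoids, and in none of the models did every library correlate best with its own number, so the numbers are not taken to pair the samples. In CAC the only exception was RNF138-/- library 1, at 0.05 with RNF138 fl/fl library 3 and 0.04 with library 1, so a weak pairing there is not excluded. The replicate block moved no count of the licensing genes in colitis or organoids.

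CAC against colitis in RNF138 fl/fl called 1 gene, but 0 by library size and 0 to 1 without 1 library. Organoids against CAC in RNF138 fl/fl called 2, but 4 with RLE factors, library size or DESeq2, 5 with upper quartile scaling, and 0 to 5 without 1 library. Of all 19390 genes 6531 were called lower in the main fit, 6698 with RLE factors, 7204 by library size and 7421 with upper quartile scaling. DESeq2 called 6813 of 19375 lower. In RNF138-/-, CAC against colitis called 4, but 3 to 5 without 1 library and 6 by library size. The 6 included Mcm6 and Cdc6, beside 7302 of 19390 genes called higher (5419 in the main fit). Organoids against CAC in RNF138-/- called 10, and 9 to 10 without 1 library. The difference of genotype effects called 5 genes for CAC minus colitis (2 to 6 without 1 library), 4 for organoids minus CAC (1 to 5, and 7 by library size, beside 4459 of 19390 genes called lower), and 1 for organoids minus colitis (0 to 1, and 0 by library size, upper quartile scaling or no filter).

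Some log2 fold changes changed sign, none of them called except Cdt1 in organoids against CAC. In organoids, Cdc45 became 0.01969 with RLE factors, 0.02058 with DESeq2, 0.01323 without the filter, 0.02996 in the fit of all libraries, 0.01361 with the replicate block and 0.6199 under epithelial scaling. By library size, which moved the median of all genes to -0.24, Mcm4 became -0.1055, Mcm5 -0.1106 and Cdc6 -0.1029, and Cdt1 in organoids against CAC (RNF138-/-) became -0.05009. Under epithelial scaling Mcm2 became 0.4919, Mcm3 0.3517 and Mcm7 0.3074 in organoids, and Cdc45 0.09435 and Cdt1 0.03907 in colitis, where upper quartile scaling gave 0.01377 for Cdc45. Without 1 library the colitis values ran from -0.2768 to 0.1304 for Cdc45, -0.4869 to 0.05456 for Cdc6 and -0.2513 to 0.1083 for Cdt1. In organoids they ran from -0.03956 to 0.3195 for Mcm4, -0.0579 to 0.4091 for Mcm5, -0.07628 to 0.2578 for Cdc6, -0.2604 to 0.1072 for Mcm2, -0.4255 to 0.06169 for Mcm3 and -0.1128 to 0.207 for Cdc45. The cause of these changes was not tested. Per-length levels moved by more than 1 SD in 32 of 60 cases with the longest transcript as length.

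Scaling also moved the split of calls over all genes. For genotype in organoids 2734 were higher and 2702 lower, but 1916 and 4489 by library size and 6777 and 569 under epithelial scaling, and in colitis 3 and 12 became 5 and 8 under epithelial scaling. By library size, CAC against colitis in RNF138-/- went from 5419 and 5184 to 7302 and 3814, and organoids against CAC in RNF138-/- from 4978 and 6639 to 2841 and 10491 (3912 and 8297 by upper quartile). The differences of genotype effects went by library size from 817 and 1916 to 1193 and 1510 for CAC minus colitis, from 2540 and 1987 to 1663 and 4459 for organoids minus CAC, and from 877 and 501 to 433 and 797 for organoids minus colitis (629 and 742 by upper quartile).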
